A study of Mus musculus with 2 samples.

Results

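The genes examined here encode 10 enzymes of mitochondrial fatty acid β-oxidation. They were chosen by name from the count table, with earlier results of these data known, so the shares of all genes given below are a description only. They are Cpt1a, Cpt1b and Cpt2 of the carnitine shuttle, the acyl-CoA dehydrogenases Acadvl, Acadl, Acadm and Acads, the trifunctional protein subunits Hadha and Hadhb, and the electron carrier Etfdh. All 10 were found among the 46095 genes of the table, and all 10 were among the 17356 genes whose counts in the 2 libraries summed to 10 or more, here called the genes tested. Both libraries were made from C3H10 cells, a mouse mesenchymal line that becomes adipocytes under adipogenic induction and that the labels describe as a fibroblast precursor of strain C57BL/6. The name of the line points to strain C3H instead, and the strain on the labels was not checked. Control cells received a negative control antisense oligonucleotide (ASO NC) and knockdown cells received an ASO against MALAT1, each at 100 nM before induction. Both cultures were then induced for 2 days with isobutylmethylxanthine, dexamethasone, insulin and troglitazone, an agonist of PPAR-γ, and were kept in insulin until differentiation day 6. Each condition has 1 library of 1 cell line, so no difference below has a replicate check, and the sources used here do not give which MALAT1 ASO these cells received.

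Fatty acids are burned in the mitochondrial matrix by a repeating spiral of oxidation, hydration, oxidation and cleavage that shortens the acyl chain and releases acetyl-CoA. Long chains enter only as carnitine esters, and CPT1 on the outer membrane sets the rate of entry because malonyl-CoA, the precursor of fatty acid synthesis, inhibits it. White adipocytes mainly store fatty acids, but their genes for β-oxidation are induced together with the mitochondria during adipogenesis, and many of them are known targets of PPAR receptors.

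Depth was alike, with 58147539 counts in control and 61653549 in knockdown cells, and library sizes were scaled by the TMM factors of edgeR, 0.992 and 1.01. Values are given as counts, as CPM, the counts scaled to library size or, between genes, as CPM per kilobase of the longest protein-coding transcript. The log2 ratio, which is the log2 fold change of the plots, is that of the knockdown to the control library, and its 95% Clopper-Pearson interval takes in counting error alone. Duplicate reads, if counted, would make that interval too narrow. Malat1, the target, had 170402 counts with ASO NC and 45396 with ASO MALAT1, or 24.7% of the control level. The adipocyte identity of the cells was checked on 15 markers, of which 14 were tested and Lep, with 1 and 0 counts, was not. The summed level of these markers was 7480 CPM in control cells and 2966 CPM in knockdown cells.

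Most of the β-oxidation genes had lower levels in the knockdown library, by modest amounts. Of the 9 members other than Acadvl, which had few counts in both libraries and is treated apart, 8 were lower and 1, Cpt1a, was higher. Their median log2 ratio was -0.45, against 0.00 over all genes tested and 0.01 over the 8251 genes with a mean of at least 1000 counts. No member was at a log2 ratio of -1 or below, where 6.02% of all genes tested lay, and Acadvl was the 1 member at 1 or above, where 3.83% lay. Genes at or beyond either of these limits are called past the fold. Among genes with a mean of at least 1000 counts these shares were only 0.739% and 0.0121%. Acadm, Cpt2, Hadhb and the sparse Cpt1b were at -0.5 or below, where 13.9% of all genes tested lay, and Acadvl alone was at 0.5 or above, where 9.89% lay. Among the 8 members with a mean of at least 1000 counts, 3 were at -0.5 or below, against 3.88% of all genes of that depth, and 0 were at 0.5 or above, against 2.10%. In 7 of these 8 members the whole interval lay below 0, against 31.8% of genes of that depth, and in Cpt1a it lay above 0, as in 37.3%. The summed counts of the 9 members gave 1538 CPM in control and 1066 CPM in knockdown cells, a log2 ratio of -0.53, which was -0.36 without Acadm.

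**Figure D1:**
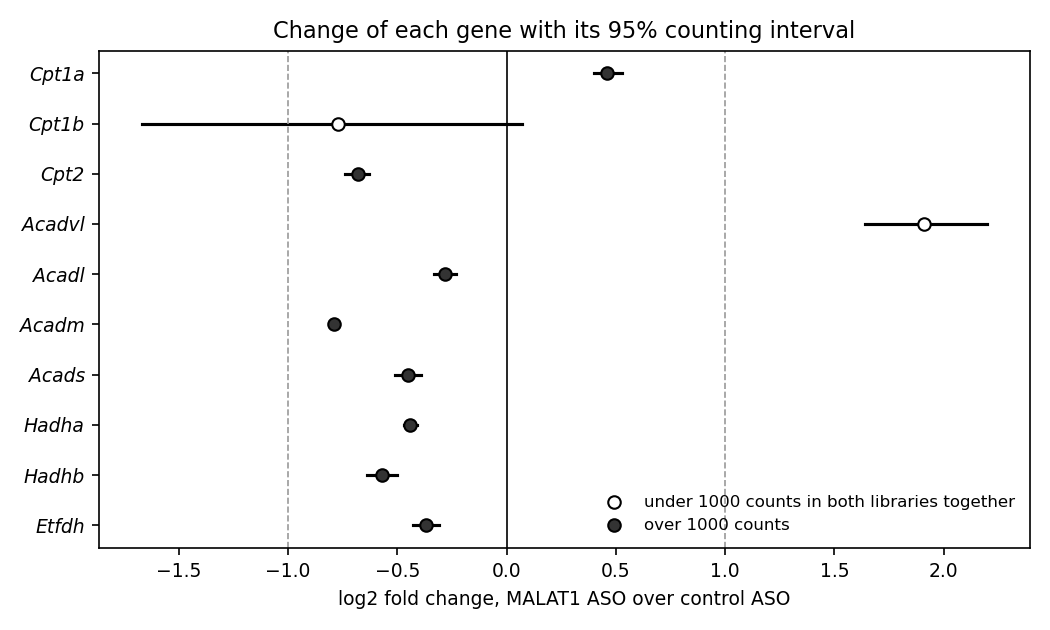
Log2 fold change of each gene between the knockdown and the control library (x axis), with lines for the 95% Clopper-Pearson intervals of counting error and dashed lines at -1 and 1. Open points mark the genes with under 1000 counts in both libraries together, Cpt1b and Acadvl; the filled points lie between -0.79 and -0.28 except Cpt1a at 0.46.

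The promoters of the members were read because most of these genes had lower levels and Cpt1a a higher one. RefSeq windows of 300 bases on GRCm38.p6, from 250 bases before to 50 bases after the start, were found for 9 of the 10 genes, Cpt1b being the gene without one. The RefSeq starts of Hadha and Hadhb used for these windows lie 273 bases apart on opposite strands of chromosome 5 (the GENCODE genes lie 86 bases apart), and 228 bases are common to both windows. For Cpt1a and Etfdh the window lies wholly inside the GENCODE gene, so it does not cover the GENCODE start of that gene. The windows of Acadm, the member with the lowest fold change, of Cpt1a, the well-counted member that was higher, of Acadvl and of the paired subunits are shown. Capitals mark the nuclear receptor half-site AGGTCA, or its reverse complement, in the first 3 windows, and the bases that also lie in the Hadha window in the last. The windows lie at chr3:153944594-153944893 on the minus strand, chr19:3323051-3323350 on the plus strand, chr11:70015379-70015678 on the minus strand and chr5:30155003-30155302 on the plus strand.
Acadm: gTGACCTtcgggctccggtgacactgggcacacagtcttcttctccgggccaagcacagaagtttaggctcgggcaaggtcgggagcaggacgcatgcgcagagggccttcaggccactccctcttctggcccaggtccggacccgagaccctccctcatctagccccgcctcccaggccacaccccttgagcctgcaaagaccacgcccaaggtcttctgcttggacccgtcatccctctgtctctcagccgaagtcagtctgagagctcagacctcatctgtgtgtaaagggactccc
Cpt1a: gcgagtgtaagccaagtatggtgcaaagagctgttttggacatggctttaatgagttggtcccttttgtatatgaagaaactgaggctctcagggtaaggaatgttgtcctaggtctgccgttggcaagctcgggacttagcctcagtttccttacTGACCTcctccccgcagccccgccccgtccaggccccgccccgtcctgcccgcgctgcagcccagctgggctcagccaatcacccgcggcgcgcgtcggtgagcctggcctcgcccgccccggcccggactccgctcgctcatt
Acadvl: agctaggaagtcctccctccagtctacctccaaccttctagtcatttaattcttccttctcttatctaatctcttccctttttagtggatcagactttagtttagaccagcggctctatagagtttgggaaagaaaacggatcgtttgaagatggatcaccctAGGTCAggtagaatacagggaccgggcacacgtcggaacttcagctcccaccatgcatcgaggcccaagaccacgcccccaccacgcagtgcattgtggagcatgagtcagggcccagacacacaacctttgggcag
Hadhb: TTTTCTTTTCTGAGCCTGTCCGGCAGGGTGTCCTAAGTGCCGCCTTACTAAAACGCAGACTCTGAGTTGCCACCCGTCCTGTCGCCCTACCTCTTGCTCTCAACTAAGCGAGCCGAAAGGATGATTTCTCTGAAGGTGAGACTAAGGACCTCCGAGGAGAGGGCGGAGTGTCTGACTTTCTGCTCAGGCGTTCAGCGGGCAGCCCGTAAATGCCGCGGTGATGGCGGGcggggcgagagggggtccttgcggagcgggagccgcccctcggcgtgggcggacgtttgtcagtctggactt

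The half-site AGGTCA, searched on both strands, was in 3 of the 9 windows, those of Acadm, Acadvl and Cpt1a, against 16.3% of all 32851 windows and 13.0% of the 14710 windows of genes tested. The direct repeat of this half-site with 1 base between the copies, known as DR1 and bound by PPAR with RXR, was in 0 of 9, against 0.0396% of all windows and 0.0476% of those of genes tested. The longer site TCAAGGTCA of estrogen-related receptors, which contains the half-site, was in 0 of 9, against 0.423% and 0.258%. Only exact copies were searched, and at such low shares 0 of 9 windows carries no information for DR1 or this longer site. The GC box GGGCGG was in 7 of 9, against 35.7% and 57.1%, and CCAAT was in 2 of 9, those of Etfdh and Cpt1a, against 37.4% and 37.6%. The GC box of the Hadha window lies in the bases shared with the Hadhb window, which holds others too, so that box counts for both genes. The gene with the half-site and the lowest fold change, Acadm, and a gene with the half-site that was higher, Cpt1a, thus shared this motif. These are counts of letters in short windows and say nothing of binding.

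The carnitine shuttle moves long-chain acyl groups across the mitochondrial membranes, and its members differed in direction. Cpt1a, the liver-type carnitine palmitoyltransferase of the outer membrane, was more abundant here than Cpt1b, the other CPT1 member. Cpt1a lies at chr19:3322334-3385733 on the plus strand (GRCm38, GENCODE M21, as for all genes below) and had 3494 counts with ASO NC and 5191 with ASO MALAT1. It was the 1 well-counted member with more RNA in the knockdown library, at 60.6 CPM against 83.6 CPM, a log2 ratio of 0.46 (95% interval 0.40 to 0.53). Cpt2 (chr4:107903981-107923610, minus strand), which returns the acyl group to CoA on the inner membrane, had 6921 and 4643 counts. Its log2 ratio was -0.68 (95% interval -0.74 to -0.63), or 62.3% of the control level. Within a library the ratio of the paired enzymes does not depend on scaling. The pair of Cpt1a and Cpt2 was chosen after its values were seen. Cpt1a made up 33.5% of the counts of Cpt1a and Cpt2 in control cells (95% interval 32.6 to 34.5) and 52.8% in knockdown cells (95% interval 51.8 to 53.8). Per kilobase Cpt2 stayed above Cpt1a in both libraries, at 50.6 against 14.0 CPM in control and 31.5 against 19.4 CPM in knockdown cells.

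Cpt1b (chr15:89416405-89425863, minus strand), the muscle-type form that brown adipocytes also use, was close to absent. It had 32 counts with ASO NC and 20 with ASO MALAT1, a log2 ratio of -0.77 whose interval from -1.67 to 0.07 includes 0, so no difference was detectable at this depth. Cpt1a held 99.1% of the counts of Cpt1a and Cpt1b in control cells (95% interval 98.7 to 99.4) and 99.6% in knockdown cells (95% interval 99.4 to 99.8), and these intervals touch at their rounded limits. The low value of Cpt1b carries a limit of annotation. In the GENCODE M21 annotation of GRCm38, 2744 of its 3372 exon bases (81.4%) are also exon bases of Gm44502 on the same strand, a gene that had 0 counts in both libraries. How reads on overlapping genes were counted is not given in the sources used here, so the level of Cpt1b is uncertain. Of 10 muscle markers, 6 (Myod1, Myog, Myf5, Acta1, Myh1 and Actc1) were at 0 in both libraries, while Des, an intermediate filament protein of muscle, had 448 and 314 counts and Tnnt3, a troponin, 29 and 47. Their part in the counts of Cpt1b was not tested. Ucp1, the defining gene of brown fat, had 1 count in each.

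Other proteins of the shuttle were read from a list of 4. Cpt1c, a brain-enriched relative of CPT1 of the endoplasmic reticulum, was higher with 2954 and 3694 counts, a log2 ratio of 0.22 (95% interval 0.15 to 0.29). Per kilobase Cpt1c stood above Cpt1a, at 18.3 against 14.0 CPM in control and 21.3 against 19.4 CPM in knockdown cells. Crat, the acetyltransferase that buffers acetyl-CoA with carnitine, was the lowest of the list with 13888 and 7825 counts and a log2 ratio of -0.93. Slc25a20, the translocase that exchanges acylcarnitine for carnitine across the inner membrane, had -0.46, and Slc22a5, the carnitine importer of the plasma membrane, had -0.39. Both of these were named after their values were seen, to complete the list.

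**Figure D2:**
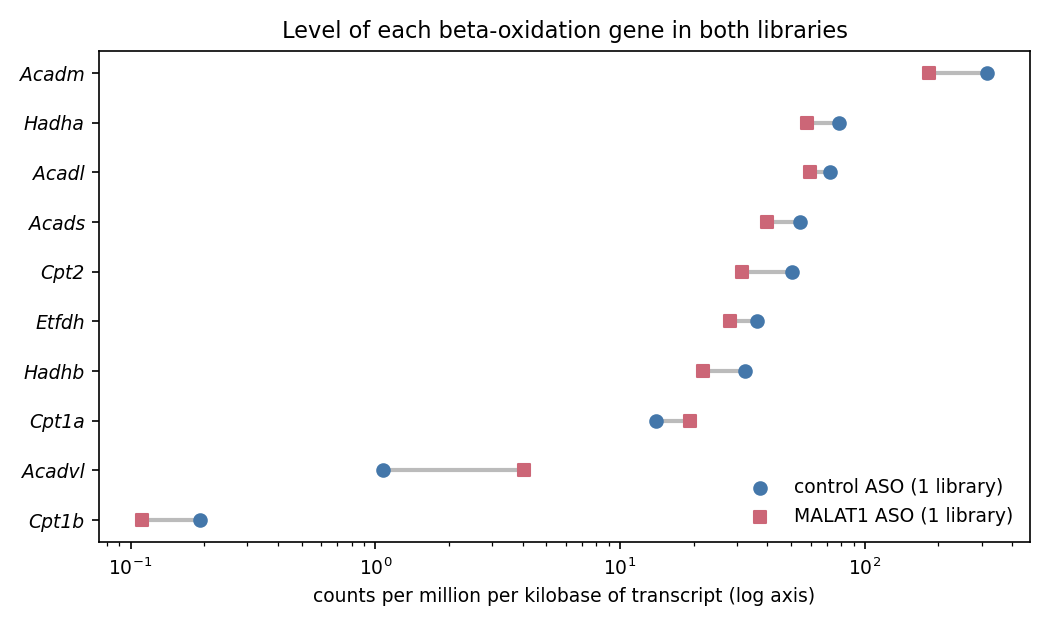
Level of each gene in CPM per kilobase of its longest protein-coding transcript (x axis, log scale), with 1 point per library. Acadm is highest in both libraries at 317 and 183, Cpt1b lowest at 0.192 and 0.111, and Cpt1a and Acadvl are the genes whose knockdown point lies to the right.

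The acyl-CoA dehydrogenases open each turn of the spiral, and each takes chains of its own range of lengths. Acadm (chr3:153922357-153944632, minus strand), the medium-chain enzyme, was the most abundant member and the one with the lowest fold change. It had 37469 counts with ASO NC and 23320 with ASO MALAT1, a log2 ratio of -0.79 (95% interval -0.81 to -0.77), or 57.8% of the control level. Acads (chr5:115110299-115119346, minus strand), for short chains, had 5871 and 4629 counts and a log2 ratio of -0.45 (95% interval -0.51 to -0.39). Acadl (chr1:66830839-66863277, minus strand), the long-chain enzyme, was the least changed of the well-counted members, with 7993 and 7084 counts and a log2 ratio of -0.28 (95% interval -0.33 to -0.23). The intervals of these 3 dehydrogenases do not overlap, so they differed from one another by more than counting error. Acadl made up 17.6% of the counts of Acadl and Acadm in control cells (95% interval 17.2 to 17.9) and 23.3% in knockdown cells (95% interval 22.8 to 23.8). A processed pseudogene, Gm5131, matches 681 bases of the Acadm transcript at 93.5% identity, and it had 1 and 0 counts.

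Acadvl (chr11:70010183-70015411, minus strand), the very-long-chain enzyme of the inner membrane, stood apart. It had 135 counts with ASO NC and 548 with ASO MALAT1, a log2 ratio of 1.91 (95% interval 1.64 to 2.20), or 3.76-fold. Per kilobase its level was 1.08 and 4.07, below every other member but Cpt1b in both libraries. Of its 2686 exon bases, 1151 (42.9%) are exon bases of Dvl2 on the opposite strand, and Dvl2 went the other way, with 264 and 135 counts and a log2 ratio of -1.07. Although the library kit kept strand, the sources used here do not say that the counting did, so reads of Acadvl and Dvl2 may not be told apart. Few counts were found all along this stretch of chromosome 11. Among the 15 genes on each side in RefSeq order (GRCm38.p6), 21 protein-coding genes were in the table, and 0 of them had a mean of at least 1000 counts, compared with 37.9% of protein-coding genes in the whole table. Around the other members, between 2 and 12 protein-coding neighbours had such a mean. The 11 neighbours tested spread widely, from -1.49 for 0610010K14Rik, with 243 and 93 counts, to 2.44 for Eif5a, a translation factor of nearly all cells, with 185 and 1081 counts. The part of the overlap and of the stretch in the value of Acadvl was not tested.

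**Figure D3:**
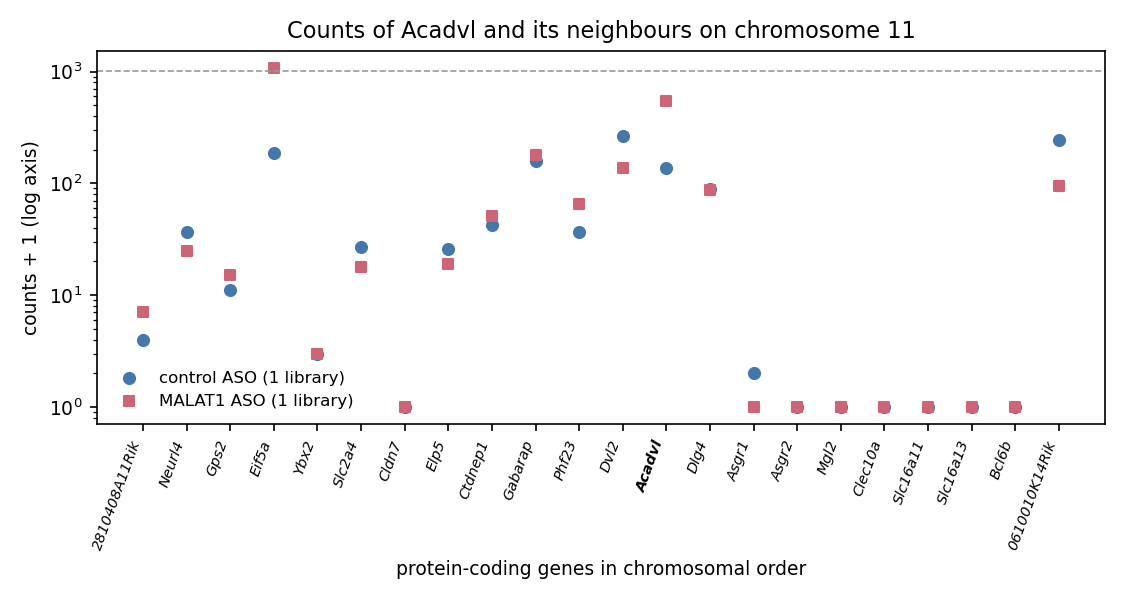
Counts plus 1 (y axis, log scale) in both libraries for Acadvl and the protein-coding genes within 15 genes on each side, in chromosomal order (x axis), with a dashed line at 1000 counts. Eif5a in knockdown cells, at 1081 counts, is the 1 point above the line, and Acadvl and Eif5a are higher in knockdown cells while Dvl2 and 0610010K14Rik are lower.

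The trifunctional protein carries out the remaining steps of the spiral on long chains: Hadha holds the hydratase and the hydroxyacyl-CoA dehydrogenase, and Hadhb holds the thiolase. Hadha (chr5:30118304-30155162, minus strand) had 18159 counts with ASO NC and 14417 with ASO MALAT1, a log2 ratio of -0.44 (95% interval -0.47 to -0.41). Hadhb (chr5:30155248-30184593, plus strand) had 3836 and 2790 counts and a log2 ratio of -0.57 (95% interval -0.64 to -0.50). Both subunits were lower. Hadha shares 75 of its exon bases (0.859%) with Garem2 on the opposite strand. Hadha made up 82.6% of the counts of the pair in control cells (95% interval 82.1 to 83.1) and 83.8% in knockdown cells (95% interval 83.2 to 84.3), a difference of counts that just exceeds these intervals and that no longer did when counts were divided by 4. Hadhb has a near-identical copy, which makes its level uncertain. The processed pseudogene Gm13910, looked at after the copies were searched for, matches 1428 bases of the Hadhb transcript at 99.8% identity. It had 2295 and 1710 counts, a log2 ratio of -0.53 close to that of Hadhb. With both summed the log2 ratio was -0.55 (95% interval -0.61 to -0.50), and Hadha had 2.96 counts per summed count in control cells and 3.20 in knockdown cells, in place of 4.73 and 5.17. A second copy, Gm9108, with 97.6% identity, had 16 and 12 counts.

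Etfdh (chr3:79603788-79629500, minus strand) passes the electrons of the acyl-CoA dehydrogenases from the electron transfer flavoprotein to ubiquinone in the inner membrane. It had 4975 counts with ASO NC and 4141 with ASO MALAT1, a log2 ratio of -0.37 (95% interval -0.43 to -0.31). It shares 278 of its exon bases (3.70%) with 4930579G24Rik on the opposite strand, which had 279 and 495 counts. The flavoprotein itself was lower to a similar degree, with -0.35 for Etfa and -0.46 for Etfb, its subunits.

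Compared per kilobase, the members kept nearly the same order in both libraries. In control cells the order ran from Acadm at 317 CPM per kilobase through Hadha at 78.3, Acadl at 72.3, Acads at 54.4, Cpt2 at 50.6, Etfdh at 36.3, Hadhb at 32.5 and Cpt1a at 14.0 to Acadvl and Cpt1b. In knockdown cells Acadm was again first at 183 and Cpt1a eighth at 19.4, and the 1 change of order was that Acadl, at 59.5 (95% interval 58.1 to 60.9), stood before Hadha, at 57.8 (95% interval 56.8 to 58.7). These intervals overlap, whereas those of all other neighbours in the order lay apart, in both libraries. Overlap alone does not show that Acadl and Hadha were equal in knockdown cells, and their ratio was not tested. The place of Hadhb rests on counting it without its copy: with Gm13910 summed it stood at 51.9 and 35.4 CPM per kilobase of the Hadhb transcript, above Etfdh and Cpt2, though in control cells its interval (50.6 to 53.2) overlapped those of Cpt2 and Acads. The shares of the 9 members in their own sum, looked at after the values were seen, need no scaling between libraries. Acadm went from 42.2% to 35.2% of that sum, while Cpt1a went from 3.94% to 7.84%. Cpt2 also took a smaller share, 7.80% (95% interval 7.62 to 7.98) and then 7.01% (95% interval 6.82 to 7.21). Acadl went from 9.01% to 10.7%, Hadha from 20.5% to 21.8% and Etfdh from 5.61% to 6.25%.

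**Figure D4:**
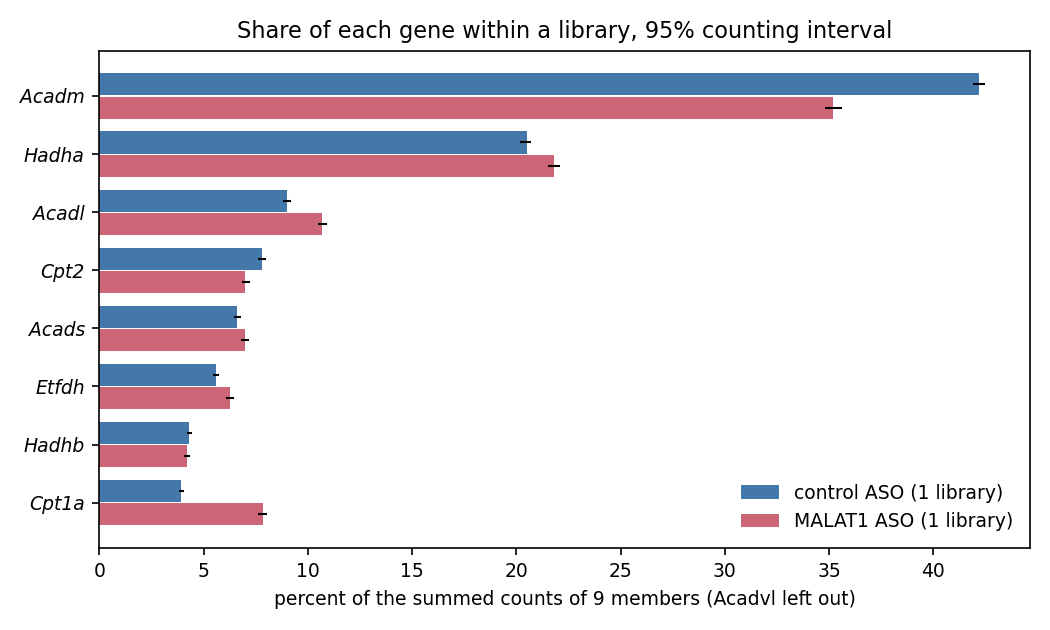
Share of each gene in the summed counts of 9 members (x axis, percent), with 1 bar per library and error bars for the 95% Clopper-Pearson interval; Cpt1b, at 0.0361% and 0.0302%, is part of the sum but is not drawn. Acadm takes 42.2% of the control and 35.2% of the knockdown sum, and Cpt1a 3.94% and 7.84%.

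The rest of the spiral was lower as well. Of 19 other proteins of the pathway, which comprise the other shuttle proteins, the matrix enzymes, the enzymes for unsaturated chains and the electron transfer flavoprotein, 18 were lower and 1 (Cpt1c) was higher, with a median log2 ratio of -0.39. In 18 the whole interval lay below 0, against 26.4% of all genes tested. Among genes with a mean of at least 1000 counts, which not all 19 reach, that share was 31.8%. At -0.5 or below lay 5 of the 19, against 13.9% of all genes tested and 3.88% of genes of that depth. The 9 matrix enzymes were all lower, from -0.61 for Echs1, the short-chain hydratase, with 7045 and 4953 counts, to -0.22 for Acad9, which also assembles complex I, with 3407 and 3148 counts. The 4 enzymes for unsaturated fatty acids were lower, from -0.58 for the isomerase Eci1 to -0.16 for Eci2. The propionyl-CoA route, which takes the last piece of odd chains, had a median of -0.52 over 4 genes, from -0.60 for Pccb to -0.32 for Mcee. The relatives of the dehydrogenases that act on amino acid carbon had a median of -0.39 over 4 genes, with Ivd, the isovaleryl-CoA dehydrogenase, past the fold at -1.09 (3813 and 1922 counts) and Acadsb at -0.24.

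Peroxisomes shorten very long chains with their own enzymes, and these were less uniform. Of 12 genes, 9 were lower and 3 higher, with a median log2 ratio of -0.19. Ehhadh, the peroxisomal bifunctional enzyme, was the 1 gene past the fold, with 202 and 76 counts and -1.51. Crot, the octanoyltransferase that hands shortened chains to mitochondria, was the highest at 0.17, with 2169 and 2619 counts.

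The genes that make or degrade malonyl-CoA were also listed, because malonyl-CoA gates CPT1, together with AMPK, the energy-sensing kinase that inhibits the carboxylases. Acacb, the acetyl-CoA carboxylase of the outer mitochondrial membrane, was the lowest, with 4569 and 1723 counts and a log2 ratio of -1.51 (95% interval -1.59 to -1.43). Acacb was lower in the same library in which Cpt1a was higher, and a link between these genes was not tested. The other carboxylase, Acaca, had -0.58, and Mlycd, which degrades malonyl-CoA, had -0.39, both named after their values were seen. The 6 AMPK subunit genes that were listed ran from -0.68 for Prkag2 to 0.06 for Prkaa1. The list of 9 had a median of -0.39, with 1 gene past the fold.

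Turning to the transcription factors that act on these genes, Pparg had 11816 and 8552 counts, a log2 ratio of -0.57 (95% interval -0.61 to -0.53). Ppara, the form that drives oxidation in liver, had only 27 and 24 counts, and its interval from -1.13 to 0.57 shows no detectable difference. Ppard, another PPAR form, had 118 and 52 counts and was past the fold at -1.28, and Rxrb, with 8 and 2 counts, was so at -1.87 with an interval that includes 0. The coactivators differed in direction: Ppargc1a was the highest of the list with 107 and 158 counts and 0.45 (95% interval 0.09 to 0.82), and Ppargc1b, named after its value was seen, had 2770 and 1685 counts and -0.82. Over the 10 genes of this list that were tested the median was -0.36.

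Of 10 other known PPAR target genes, 8 were tested, with a median of -0.55, 3 past the fold lower and 1 higher. The median was -0.21 when each library needed 10 counts, which leaves out Ucp2 and Plin5. The lower ones were the uncoupling proteins Ucp2, with 44 and 5 counts, and Ucp3, with 78 and 21 counts, and the lipid droplet protein Plin5, with 8 and 4 counts. The higher one was the thioesterase Acot1, with 11 and 27 counts. These 4 rest on few counts. The better-counted genes of the list went both ways, and were named after their values were seen. Plin2, another lipid droplet protein, had 45255 and 33053 counts and a log2 ratio of -0.56, and the thioesterase Acot2 had 1060 and 780 counts and -0.55. Pdk4, which diverts mitochondria from pyruvate to fatty acids, was slightly higher, with 16596 and 19662 counts and a log2 ratio of 0.14 (95% interval 0.11 to 0.17).

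**Figure D5:**
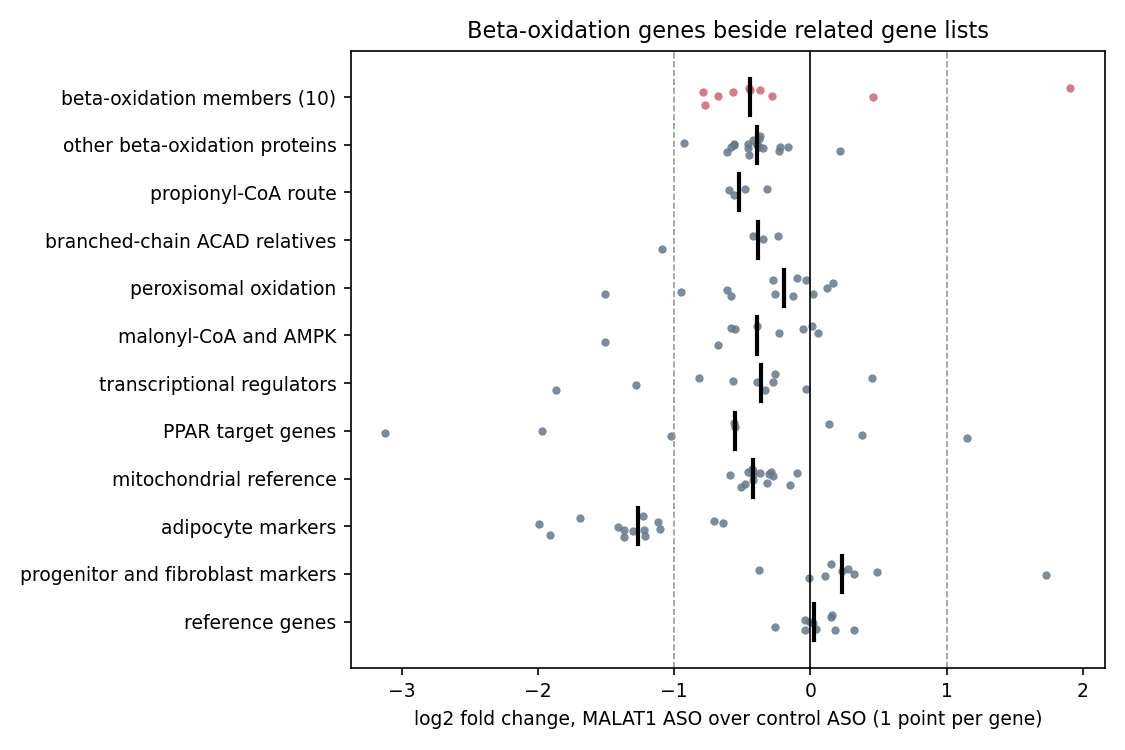
Log2 fold change of every tested gene (x axis, 1 point per gene) in the members and in related gene lists (y axis, without the sparse brown fat and muscle lists), with a black bar at each median and dashed lines at -1 and 1. The members (median -0.44 over all 10) lie mostly near the mitochondrial reference (median -0.42) and to the right of the adipocyte markers (median -1.27).

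By their medians, the β-oxidation genes were lower by an amount close to that of other mitochondrial proteins and smaller than that of adipocyte markers. A reference list of 15 nuclear genes for mitochondrial proteins outside this pathway had a median log2 ratio of -0.42, with 15 of 15 lower, from -0.59 for Uqcrc1 (95 and 68 counts) to -0.10 for Tfam. The summed counts of this list gave -0.38, against -0.53 for the 9 members, or -0.36 without Acadm. At -0.5 or below lay 2 of the 15 genes and 4 of the 9 members, against 13.9% of all genes tested. The 14 adipocyte markers tested were all lower with a median of -1.27, and 12 were past the fold, from -1.99 for Retn to the sparse Cd36 at -0.64. None of the 10 members was as low as the median of the adipocyte markers. Progenitor and fibroblast markers had a median of 0.23 over 9 genes tested, 7 of them higher, from -0.38 for Pi16 to 1.73 for Cd34 (19 and 69 counts), while Dlk1 was at 0 in both libraries. Their summed level was 10014 CPM in control and 11042 CPM in knockdown cells. Brown fat markers summed to 8.09 and 4.70 CPM and had a median of -1.47 over 6 genes tested, which was -0.60 when 1 count summed was enough and also when each library needed 10 counts. Of these, Cidea with 40 and 4 counts, Elovl3 with 37 and 6 and Cox8b with 56 and 13 were past the fold, and Prdm16 was the highest at -0.22 (95% interval -1.48 to 1.03). Muscle markers summed to 8.32 and 5.88 CPM, with -0.62 for Des and 0.58 for Tnnt3 (95% interval -0.11 to 1.31), the genes tested. The 10 reference genes had a median of 0.03, from -0.26 for Gapdh to 0.32 for Tubb5. In RNA from a whole culture, fewer adipocytes and less RNA per adipocyte cannot be told apart, and the part of the adipocyte markers in the lower levels of β-oxidation genes was not tested.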

How the data were processed

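RNA-seq of C3H10 cells was analysed in 1 library of ASO NC and 1 library of ASO MALAT1. Total RNA was depleted of rRNA and made into libraries with a directional kit. The authors deposited reads per gene symbol as raw counts without normalization, and per the submitters' processing notes HISAT2 and GRCm38 were used. The counting tool, the annotation and the treatment of strand, duplicates and multi-mapped reads are not given in the sources used here.

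With 1 library per group, edgeR's quasi-likelihood test and DESeq2 leave no residual degrees of freedom, so no test was made and no p-value is given. The counts were scaled by TMM (edgeR 4.0.16, R 4.3.3). Fold changes used a prior count of 0.5, genes needed 10 counts summed over both libraries, and intervals are Clopper-Pearson limits at 95% (scipy 1.17.1, Python 3.11.15). The intervals were tested on counts simulated with counting error alone, so that test does not cover duplicate reads or variation between cultures. A count of 0 allows up to 3 counts, or 0.0520 CPM in control and 0.0483 CPM in knockdown cells. A fold of log2 1 in either direction was the main threshold and 0.5 the second. Positions, exon overlaps and transcript lengths came from GENCODE M21 (GRCm38). Copies were searched with BLAST+ 2.17.0 at 90% identity or more over at least 100 bases. All 152 listed genes were in the table, 1 through a RefSeq synonym.

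Named genes were the members, Malat1, Pparg, genes of the 17 related lists past the fold or lowest and highest in a list, and overlapping neighbours of members. Other genes are said to be named after their values were seen, as were the pseudogene copies, the neighbours of Acadvl that do not overlap it, Prkag2 and the markers given at or near 0. Adipocyte markers past the fold are given as a count with their lowest and highest gene. The result of 1 related list is not reported here. The members and lists were chosen with earlier results of these data known. Alternatives were other scalings, filters, prior counts and thresholds, and counts divided by 4.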

Additional observations from a re-analysis of the deposited data

How the results depend on the processing

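The 10 members' log2 ratios stayed within their own counting intervals under every alternative of scaling, filter and prior count and with counts divided by 4, and 0 of these 81 values, the summed Hadhb included, changed direction. Scaling and filters shifted all members alike, by at most 0.022, and dividing counts by 4 keeps each ratio apart from rounding. These alternatives could therefore hardly change a direction, and none of them covers variation between cultures. Summing Hadhb and Gm13910, chosen after seeing the data, gave -0.55 for Hadhb. The median of the 9 members ran from -0.45 to -0.43, and was -0.44 with Acadvl included. At a fold of log2 0.5, 4 members were lower in place of 0, and the counts over all genes tested were 2405 lower and 1717 higher in place of 1045 and 665. They were 3139 and 2774 with at least 1 count summed, 427 and 180 when each library needed 10 counts, and 289 and 80 where the whole interval had to lie past log2 1. Related pathway genes, pooled from the related lists without the marker and reference lists, were past the fold in 8 lower and 1 higher. Over all genes tested 6.02% and 3.83% were. Among genes with a mean of at least 1000 counts, which not all of the pool reach, 0.739% and 0.0121% were. The lower genes of the pool were 3 of 8 PPAR targets, 2 of 10 regulators and 1 of 9 malonyl-CoA and AMPK genes. The others were 1 of 12 peroxisomal genes and 1 of 4 dehydrogenase relatives. The higher one was a PPAR target, and 0 of the 19 other pathway proteins were past the fold. Ivd and Acacb aside, these genes rest on few counts. The lower count of the pool was 26 at a fold of log2 0.5, where 13.9% of all genes tested and 3.88% of genes with a mean of at least 1000 counts lay. Among them were 5 of 19 other pathway proteins, 5 of 8 PPAR targets, 4 of 10 regulators and 4 of 9 malonyl-CoA and AMPK genes. So were 4 of 12 peroxisomal genes, 2 of 4 propionyl-CoA genes and 1 of 4 dehydrogenase relatives. At a fold of log2 1 the lower count was 5 when each library needed 10 counts and 5 by the whole interval. The higher count was 3 with at least 1 count summed and 0 by the whole interval. The median of the brown fat markers was -0.60 with either other filter in place of -1.47, as other genes entered or left the list. These counts change because other genes enter or leave them. No paired analysis was possible because each condition has 1 library. Depth limits the sparse genes, among them Cpt1b, Ppara, Rxrb, Plin5, Prdm16, Tnnt3 and Slc2a4, whose intervals include 0.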

Other observations

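Several genes that most cells or adipocytes express had few counts in both libraries, as Acadvl and Cpt1b did. They were chosen after their values were seen. Gapdh had 965 and 870 counts, Ppia 366 and 384, Cd36, the fatty acid translocase, 144 and 99, and Slc2a4, the insulin-responsive glucose transporter, 26 and 17. Fabp3, a fatty acid-binding protein, had 0 counts in both libraries, and Angptl4, a PPAR target that inhibits lipoprotein lipase, had 0 and 1. Slc2a4 lies among the 15 genes before Acadvl.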
